A study of Homo sapiens with 24 samples.

Results

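The BOP1 siRNA effect in mock-treated A549 cells at 12 h was read from 6 libraries, across the 14416 genes that reached 1 TPM in 3 or more of them, out of 60609 gene rows. TPM is the abundance of a transcript per unit of length, scaled to the same total in every library. A549 is an established cell line from a human lung adenocarcinoma. Cells of the first group (siBOP1) were transfected with a pool of siRNAs against BOP1, and those of the second (siFLuc) with siRNA against firefly luciferase, an insect gene used as the control. Transfection ran for 48 h in both groups and was followed by 12 h of mock treatment, with no interferon added. Each group holds 3 libraries of polyadenylated RNA, and the whole series holds 24 libraries in 8 groups, the others taken at 8 h or after interferon beta (IFN) at 1000 units/mL. The knockdown is transient, uses 1 siRNA reagent per arm and 1 cell line, and no label says whether the libraries of a group came from separate cultures. The p-values therefore measure only the spread between libraries, which the test of each gene took from all 24 libraries of the series.

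BOP1 joins PES1 and WDR12 in the PeBoW complex of the nucleolus, which is needed to process the precursor of the large-subunit ribosomal RNAs and to mature the large ribosomal subunit. Cells that cannot finish that subunit build up free ribosomal proteins, some of which bind MDM2, the ubiquitin ligase that keeps p53 low. A549 cells carry intact p53 and express many hepatocyte-type secreted proteins, the fibrinogen chains among them.

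Of the 14416 genes, 12972 reached 1 TPM in all 6 libraries and 492 in exactly 3. Genes that reached 1 TPM in the 3 siBOP1 libraries alone numbered 39, of which 3 passed the test described below, and those in the 3 siFLuc libraries alone numbered 28, of which 2 passed. At the edge of the rule, ITGA7 was just inside with a third-highest value of 1 TPM, and BATF2 just outside with 0.999 TPM; their log2 fold changes were 0.23 and 0.11.

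The libraries are called 1, 2 and 4 after the deposited columns; no label has a replicate 4, so the libraries numbered 4 are placed by group alone. They stood apart from libraries 1 and 2. Between libraries 1 and 2 of a group, Pearson r of log2(TPM + 1) was 0.986 to 0.989, and with library 4 it was 0.958 to 0.975. Mitochondrially encoded transcripts made up 15.7%, 15.9% and 12.1% of the TPM in siBOP1 libraries 1, 2 and 4, and 15.0%, 14.5% and 6.86% in the siFLuc libraries. The summed level of 19 cytosolic heat shock genes was 8706 to 9155 TPM in the siBOP1 libraries and 9540 and 9355 TPM in siFLuc libraries 1 and 2, but 17053 TPM in siFLuc library 4. The depth of each library is unknown, because TPM keeps none.

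Each gene was tested with limma on log2(TPM + 1), so a fold change is on that scale and understates the change of low genes; SE is limma's, and adjusted p is by Benjamini-Hochberg over 16062 genes, with a threshold of 0.05. The siRNA effect was modest in size, and how many genes it reached depended on the fit. With the library number as a block, 686 members rose and 537 fell. In the main fit, which has no block, 145 members rose (0.903% of the genes tested) and 112 fell (0.697%). With mitochondrially encoded genes left out and the rest rescaled, the split was 237 to 107. The median change was 0.58 among those that rose and -0.65 among those that fell, against 0.00 over all members. A change of at least 1 on the log2 scale was seen in 12 that rose (0.0747% of genes tested) and 17 that fell (0.106%). Values of the 3 siBOP1 libraries lay wholly above or wholly below the siFLuc values for all 257 called members, while over the genes tested the groups did not overlap in 10.4% (siBOP1 above) and 7.55% (siBOP1 below).

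How many genes were called depended on which libraries gave the spread and on how library 4 and the library number were handled. With only the 6 libraries compared in the fit, 2 members rose and 8 fell, and 10 of the 257 kept their call. With only the mock libraries, 62 rose and 67 fell. With the library number as a block, 686 members rose and 537 fell (over the genes tested, 693 or 4.31% and 538 or 3.35%), and all 257 were among them. With libraries 1 and 2 alone in all 8 groups, 162 members rose and 126 fell. The same changes were tested with both libraries numbered 4 of this comparison left out and those of the other groups kept in the fit. Without both libraries numbered 4 in this way, the counts were 18 and 26, with 39 of the 257 still called. No sign could turn then, because the groups of all 257 did not overlap. Of the 52 called genes that the naming rule gave, 17 were still called then: BOP1, HINT1, TM4SF20, FAM217B, FGB, HSPA6, CHCHD5, XRCC6, DPM3, UNG, EXTL3, SLC7A5, RPLP0, RPSA, EIF4G2, UBE2L6 and ATP5F1C. Leaving out siBOP1 library 1, 2 or 4 gave 61, 56 or 31 rises and 53, 52 or 43 falls; leaving out siFLuc library 1 gave 79 and 71, and siFLuc library 4 gave 116 and 61.

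**Figure D1:**
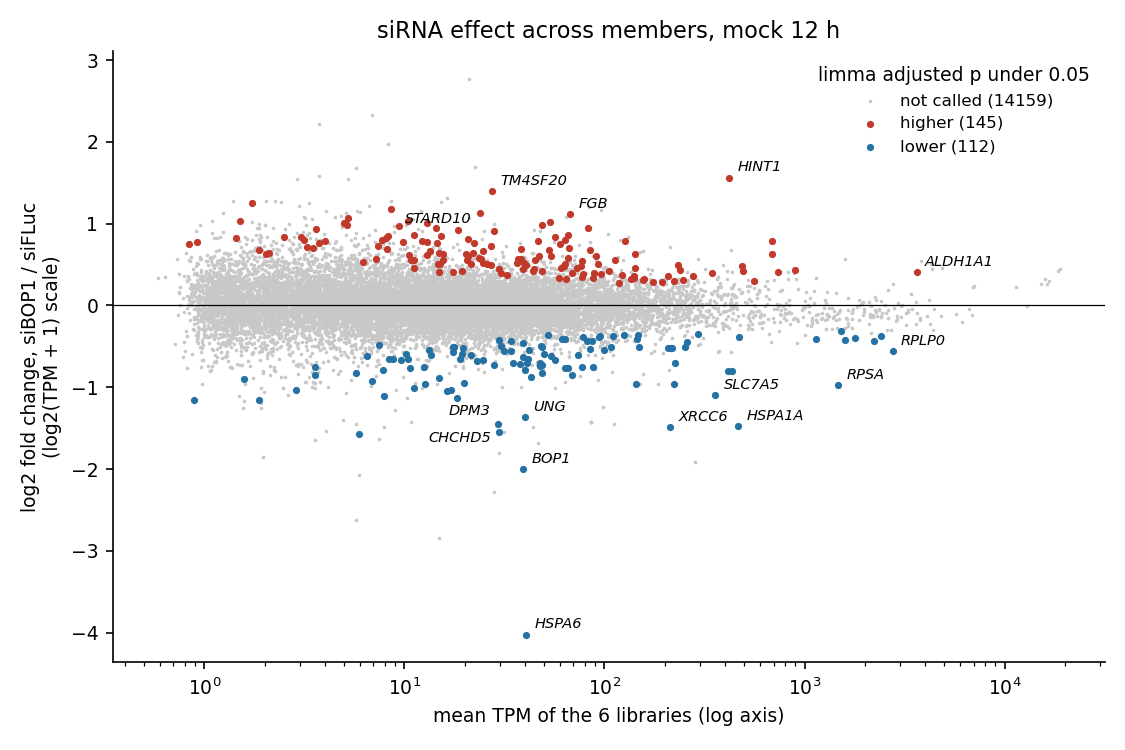
Log2 fold change of each of the 14416 members (vertical axis, siBOP1 over siFLuc on the log2(TPM + 1) scale) against its mean TPM over the 6 libraries (log axis). Red points are the 145 members that rose, blue points the 112 that fell and grey points the 14159 not called; most called points lie within 1 unit of 0.

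BOP1 itself (ENSG00000261236.8) fell to 23.5% of the control mean. It measured 15.6, 15.4 and 13.7 TPM in siBOP1 libraries 1, 2 and 4 and 51.9, 59.1 and 78.8 TPM in the siFLuc libraries, or 14.9 ± 1.05 against 63.3 ± 13.9 TPM (SD, n = 3 each). The groups did not overlap, and the log2 fold change was -2.00 (SE 0.18) at an adjusted p of 3.05e-06. A two-sided exact permutation test of the 3 against 3 libraries gave p = 0.1, the smallest it allows. Transcripts of its partners were not called: PES1, which binds BOP1, was at 88.9% of the control mean (log2 fold change -0.17, adjusted p = 0.463), and WDR12, the third subunit, at 75.6% (-0.39, adjusted p = 0.304). PES1 values overlapped between the groups, and without both libraries numbered 4 its change was 0.00.

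**Figure D2:**
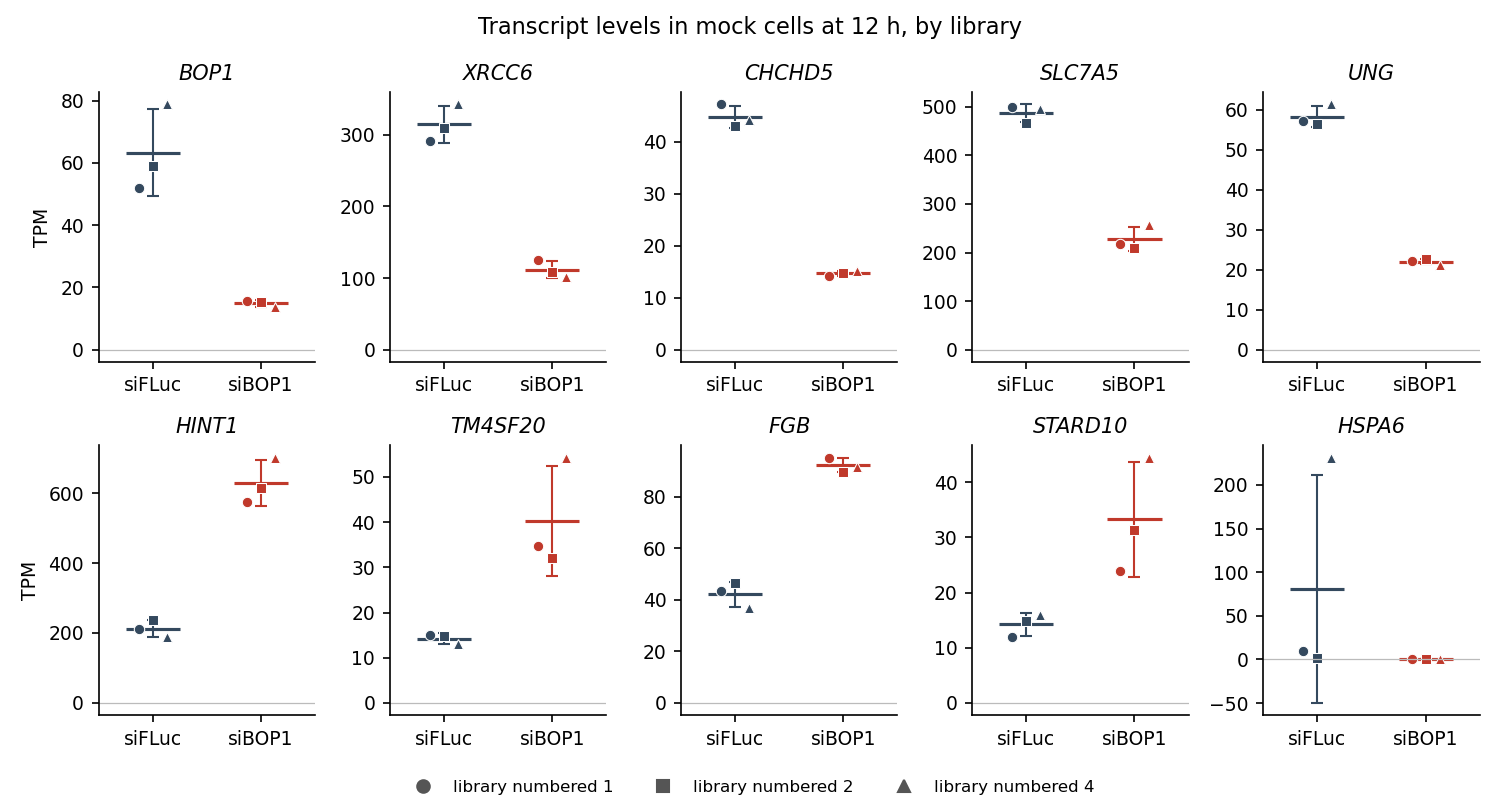
TPM of 10 genes in each library (vertical axes start near 0 and differ between panels); horizontal bars are group means and error bars are ± SD, n = 3. For BOP1, XRCC6, CHCHD5, SLC7A5 and UNG all siBOP1 points lie below the siFLuc points, for HINT1, TM4SF20, FGB and STARD10 all lie above, and for HSPA6 siFLuc library 4 stands far above the rest, so that its SD exceeds its mean.

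The genes that fell most, apart from BOP1, are spread over several of the lists used here, among them DNA repair, mitochondrial and glycosylation genes. XRCC6, which encodes the Ku70 subunit of the DNA end-binding Ku complex, measured 125, 109 and 102 TPM in the siBOP1 libraries and 292, 309 and 343 TPM in the siFLuc libraries. This is 35.5% of the control mean (-1.49 on the log2 scale, SE 0.12, adjusted p = 7.2e-07). Of the 13 end-joining genes listed, it alone was called, and the list's median change was -0.07, or 0.07 without siFLuc library 4. CHCHD5, a small protein of the mitochondrial intermembrane space, measured 14.2, 14.7 and 15.1 TPM against 47.2, 43.0 and 44.2 TPM (-1.55, SE 0.15, adjusted p = 9.24e-06). It too was the single called member of its list, 30 genes of CHCH proteins and intermembrane space import with a median of 0.01 (2 fell with the block).

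DPM3, which anchors the dolichol-phosphate mannose synthase in the endoplasmic reticulum (ER) membrane, measured 13.5, 21.4 and 12.2 TPM in the siBOP1 libraries and 44.7, 44.6 and 40.6 TPM in the siFLuc libraries. The groups did not overlap (-1.44, SE 0.20, adjusted p = 0.000538). DOLPP1, a dolichyl pyrophosphate phosphatase of the same list, fell by 0.57 on the log2 scale (adjusted p = 0.0364), and this call was lost when any 1 library was left out (highest adjusted p = 0.135, without siBOP1 library 2). The other members of that 36-gene dolichol and GPI anchor list were not called, and its median was 0.16; with the block 5 rose and 2 fell. UNG, the uracil-DNA glycosylase of base excision repair, was tightly grouped at 22.1, 22.7 and 21.3 TPM against 57.0, 56.4 and 61.3 TPM (-1.36, SE 0.20, adjusted p = 0.000914). SLC7A5, the large neutral amino acid transporter LAT1, measured 218, 209 and 256 TPM against 500, 466 and 495 TPM (-1.10, SE 0.17, adjusted p = 0.00231). CDCA7L, a MYC-interacting nuclear protein, measured 10.1, 10.2 and 10.6 TPM against 21.5, 22.3 and 22.9 TPM (-1.04, SE 0.19, adjusted p = 0.00633). XRCC6, CHCHD5, DPM3, UNG, SLC7A5 and CDCA7L stayed called when any 1 library was left out, and CDCA7L alone of them lost its call without both libraries numbered 4 (adjusted p = 0.0755).

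The remaining large falls differed in how they held up. HSPA6, an inducible HSP70, measured 0.08, 0.10 and 0.24 TPM in the siBOP1 libraries against 9.15, 1.68 and 231 TPM in the siFLuc libraries, and the change of -4.02 (SE 0.87, adjusted p = 0.0197) rests largely on siFLuc library 4. It was -2.26 (adjusted p = 0.0173) without both libraries numbered 4, and leaving out any siBOP1 library ended the call (highest adjusted p = 0.0761, without library 4). HSPA1A, the stress-inducible HSP70 next to its near-identical copy HSPA1B, measured 190, 219 and 211 TPM against 348, 375 and 1445 TPM (-1.47, adjusted p = 0.0391). Its change was -0.82 (adjusted p = 0.238) without both libraries numbered 4, and the call was lost without any siBOP1 library or siFLuc library 4. PI3, the elastase inhibitor elafin, fell by 1.14 (adjusted p = 0.0389), a call lost when any library but siFLuc library 4 was left out (highest adjusted p = 0.208, without siBOP1 library 4). EXTL3, a heparan sulfate glycosyltransferase, fell by 1.10 (adjusted p = 0.00258) and kept its call each time 1 library was left out and without both libraries numbered 4 (adjusted p = 0.0237). PCDHAC2 fell by 1.58 (adjusted p = 0.00639), a call kept with any 1 library left out but not without both libraries numbered 4 (0.111), and it shares its last exons, which hold its 3′ UTR, with the other protocadherin alpha genes, so its reads cannot be assigned with certainty.

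Near-identical copies moved with their parent genes in 3 pairs, and how shared reads were divided is not given in the sources used here. The pairs are XRCC6 with its pseudogene XRCC6P2 (-1.49 and -1.03), RPSA with RPSAP54 (-0.97 and -0.83) and YWHAZ with YWHAZP10 (-0.80 and -0.90). By class, 103 of the 112 that fell are protein-coding, 5 are processed pseudogenes and 3 are long intergenic RNAs, while 137 of the 145 that rose are protein-coding.

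What many of the transcripts that fell share is a short sequence in the 3′ UTR, the 7-mer GCCAGTT, which had come from an earlier result on the mock 8 h libraries of this series and was then searched for here. The copies in 9 genes whose values are described are shown because they carry that pattern. Each is the transcript strand, 5′ to 3′, from GENCODE 29 transcripts on GRCh38, with the 7-mer in capitals and the 11 bases before and up to 12 after it, all inside annotated 3′ UTRs.
XRCC6, chr22:41663867-41663896, plus strand: ccttgtcctcaGCCAGTTaaaatgtgtttc
DPM3, chr1:155139891-155139918, minus strand: cccattaaagaGCCAGTTtattttctaa
UNG, chr12:109110005-109110034, plus strand: ttaacgtatttGCCAGTTacgaagttccac
UNG, chr12:109110411-109110440, plus strand: tgccagtctctGCCAGTTccactgccccct
SLC7A5, chr16:87832912-87832941, minus strand: catgcgcagagGCCAGTTaaagtagatcac
CDCA7L, chr7:21902056-21902085, minus strand: taaaaatatctGCCAGTTattaaaaagcac
ATP5F1C, chr10:7807666-7807695, plus strand: aggaaaattcaGCCAGTTgattttgttttt
EIF4G2, chr11:10797499-10797528, minus strand: ccttctttgctGCCAGTTatcataggctgt
PDCD11, chr10:103446231-103446260, plus strand: tagttgttgaaGCCAGTTcttttttgtctt
RPLP0, chr12:120196732-120196761, minus strand: caaccaacttaGCCAGTTttatttgcaaaa

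Of the called members with an annotated 3′ UTR, 65 of the 103 that fell hold GCCAGTT there (63.1%), as do 5 of the 137 that rose (3.65%) and 10.5% of those not called. Over all 11971 members with an annotated 3′ UTR, 1297 hold it (10.8%). With the library number as a block, when 537 members fell, the share among falls was 34.4%. In coding sequence the shares were closer, with 15.5% of those that fell and 11.9% of all members. The reverse complement AACTGGC was in the 3′ UTR of 3.88% of those that fell and 8.49% of all members. Ranked by the share among those that fell minus the share among all members, GCCAGTT came first of 16384 7-mers, with a gap of 52.3 percentage points, and CCAGTTA, which overlaps it in 6 bases, came second with 22.3. Among the members that rose, the widest such gap was 13.6 points, for GTTATGT. No test was made of these shares, and the siRNA sequences are not given in the sources used here, so the 7-mer was not compared with them. The BOP1 transcript has no copy in its 3′ UTR and 1 in its coding sequence.

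The more copies a 3′ UTR held, the lower the median change, although most holders were not called. Among the 10674 members with no copy, 0.356% fell and the median change was 0.01. With 1 copy, 4.93% of 1135 fell and the median was -0.08, and with 2 or more, 5.56% of 162 fell and the median was -0.11. The medians with 1 copy were -0.08, -0.04 and -0.15 from the library pairs numbered 1, 2 and 4 taken separately, so the order held in each. Longer 3′ UTRs hold more copies: the median length was 949 bases with none and 5846 bases with 2 or more. Members were also split into 4 classes of like size by 3′ UTR length. In the shortest class (up to 429 bases), 17% of the 47 holders fell against 0.542% of the others; in the longest (2394 bases or more), 3.31% of 816 holders fell against 0.184%.

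**Figure D3:**
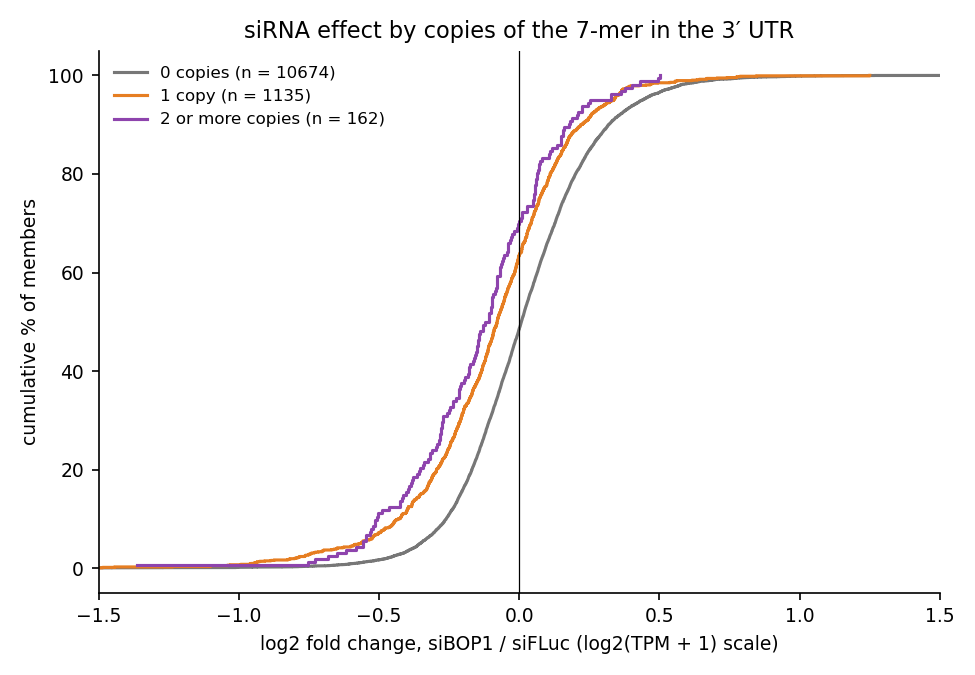
Cumulative percentage of members (vertical axis) by log2 fold change (horizontal axis, shown from -1.5 to 1.5), for members with 0, 1 and 2 or more copies of the 7-mer in the annotated 3′ UTR. The curve of the 10674 members with no copy passes 0 near the middle of the axis, with 48.6% below 0, while 63.4% with 1 copy and 70.4% with 2 or more copies lie below 0.

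Members that fell with the 7-mer and those without it differed in their medians, with overlapping quartiles. The 65 with a copy had a median change of -0.68, a median 3′ UTR length of 1862 bases, 54.8% GC at the third codon position and a median control level of 50.1 TPM. The 38 with a 3′ UTR and no copy had a median change of -0.52, a 3′ UTR of 568 bases, 69.2% GC at the third codon position and 91.8 TPM. The quartiles of that GC content were 44.8% and 64.0% with a copy and 50.5% and 79.4% without. A longer 3′ UTR goes with holding a copy over all members too, with medians of 2803 bases for 1 copy and 949 for none. For comparison, the members that rose had 998 bases, 64.3% and 29 TPM, and all members 1071 bases, 58.5% and 14.6 TPM. The remaining 9 that fell had no annotated 3′ UTR. Of the 12 largest falls, which include BOP1, 7 hold the 7-mer; of the 12 largest rises, none of the 11 with an annotated 3′ UTR does.

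Ribosome assembly factors, the group BOP1 belongs to, lay slightly but widely below the control. Of 64 large-subunit assembly factors, 63 had a change below 0 against 49.7% of all members, with a median of -0.23. BOP1 and DDX18, a nucleolar helicase at 70.3% of control (-0.49, adjusted p = 0.0292), were the 2 called, and with the library number as a block 15 fell. Without the block the share that fell was 3.1%, BOP1 itself included, against 0.777% of all members. Of 65 factors of the small-subunit processome and 40S assembly, 54 were below 0 (median -0.21), and 4 fell (6.15%). PDCD11, a large scaffold of the processome, measured 12.4, 12.7 and 14.2 TPM against 22.7, 23.7 and 32.8 TPM (-0.94, SE 0.20, adjusted p = 0.0197). FBL, the methyltransferase fibrillarin, fell by 0.38 (adjusted p = 0.00928), NOB1, the endonuclease that trims the small-subunit RNA, by 0.44 (adjusted p = 0.0426), and TRMT112, a methyltransferase activator, by 0.45 (adjusted p = 0.0459). With the block, 16 of the 65 fell.

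These medians were larger in library pair 4. The large-subunit factors had medians of -0.11, -0.14 and -0.40 in pairs 1, 2 and 4, and the small-subunit factors -0.09, -0.08 and -0.54, the same pair in which the summed heat shock level of the control was high (17053 TPM); its part in the result was not tested. Without both libraries numbered 4 the medians were -0.13 and -0.10, with 1 and 0 called, and without siFLuc library 4 alone they were -0.11 and -0.06. Over all members the median was 0.02 without both and 0.05 without siFLuc library 4 alone. List medians from these fits are to be read beside those values. DDX18 and TRMT112 lost the call without any library but siFLuc library 2 (highest adjusted p = 0.13 and 0.197, without siBOP1 libraries 2 and 4). NOB1 lost it without any library but siFLuc library 1 (up to 0.173, without siFLuc library 4), PDCD11 without any siBOP1 library or siFLuc library 4 (0.0941) and FBL without siBOP1 library 4 (0.0691).

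RNA polymerase I and its factors, which make the ribosomal RNA precursor, had 23 members and none called, with a median of -0.22 (-0.13 without siFLuc library 4) and 19 below 0. The smallest adjusted p was that of POLR1G, a subunit at 16.4, 14.9 and 13.3 TPM against 24.2, 25.8 and 23.1 TPM (-0.68, adjusted p = 0.0666, or 0.0125 with the block). TAF1D, a part of the promoter selectivity factor, had a change of -0.42 (adjusted p = 0.101, or 0.0173 with the block). With the block, 8 of the 23 fell and 1 rose.

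Among genes for the protein parts of the ribosome, 3 were called, and all 3 fell. This is 2.13% of the large-subunit and 6.25% of the small-subunit list, against 0.777% of all members. Among 47 large-subunit ribosomal proteins the median was -0.13 (43 below 0), and RPLP0, a protein of the stalk, was the only one called. It measured 2307, 2324 and 2052 TPM in the siBOP1 libraries and 3327, 3368 and 3132 TPM in the siFLuc libraries (-0.56, SE 0.09, adjusted p = 0.00239). Among 32 small-subunit ribosomal proteins the median was -0.14 (30 below 0). RPSA, a small-subunit protein also known as the laminin receptor precursor, measured 1041, 1033 and 906 TPM against 1936, 2015 and 1891 TPM, or 51.0% of control (-0.97, SE 0.09, adjusted p = 3.05e-06). RPS21 fell by 0.42 (adjusted p = 0.0147), a call lost without siBOP1 library 4 (adjusted p = 0.0956) or siFLuc library 2. With the block, 7 of the 47 and 7 of the 32 fell. Quantile normalization moved the medians of the lists to -0.05 and -0.03.

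Among 44 translation factors, 2 fell (4.55%, against 0.777% of all members), and 11 fell with the block. Of the 44, 39 lay below 0 (median -0.15, or -0.09 without siFLuc library 4). EIF4G2, the initiation factor also called DAP5, measured 342, 313 and 253 TPM against 531, 508 and 528 TPM (-0.80, SE 0.08, adjusted p = 1.84e-05), and EIF4A2, an initiation helicase, fell by 0.51 (adjusted p = 0.0288; 0.131 without siBOP1 library 4, and lost without any library but siFLuc library 2). Of 23 host genes of small nucleolar RNAs, 21 lay below 0 (median -0.19, or -0.33 without siFLuc library 4; 5 fell with the block), and GAS5 and SNHG8 fell by 0.50 and 0.37 (adjusted p = 0.0115 and 0.0425; lost without siBOP1 library 4 at 0.086 and 0.224, and for SNHG8 also without siBOP1 library 1 or siFLuc library 1 or 2). The 2 that fell are 8.70% of this list. In it the pairs 1, 2 and 4 gave -0.32, -0.28 and -0.15, so library 4 had the smaller difference.

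**Figure D4:**
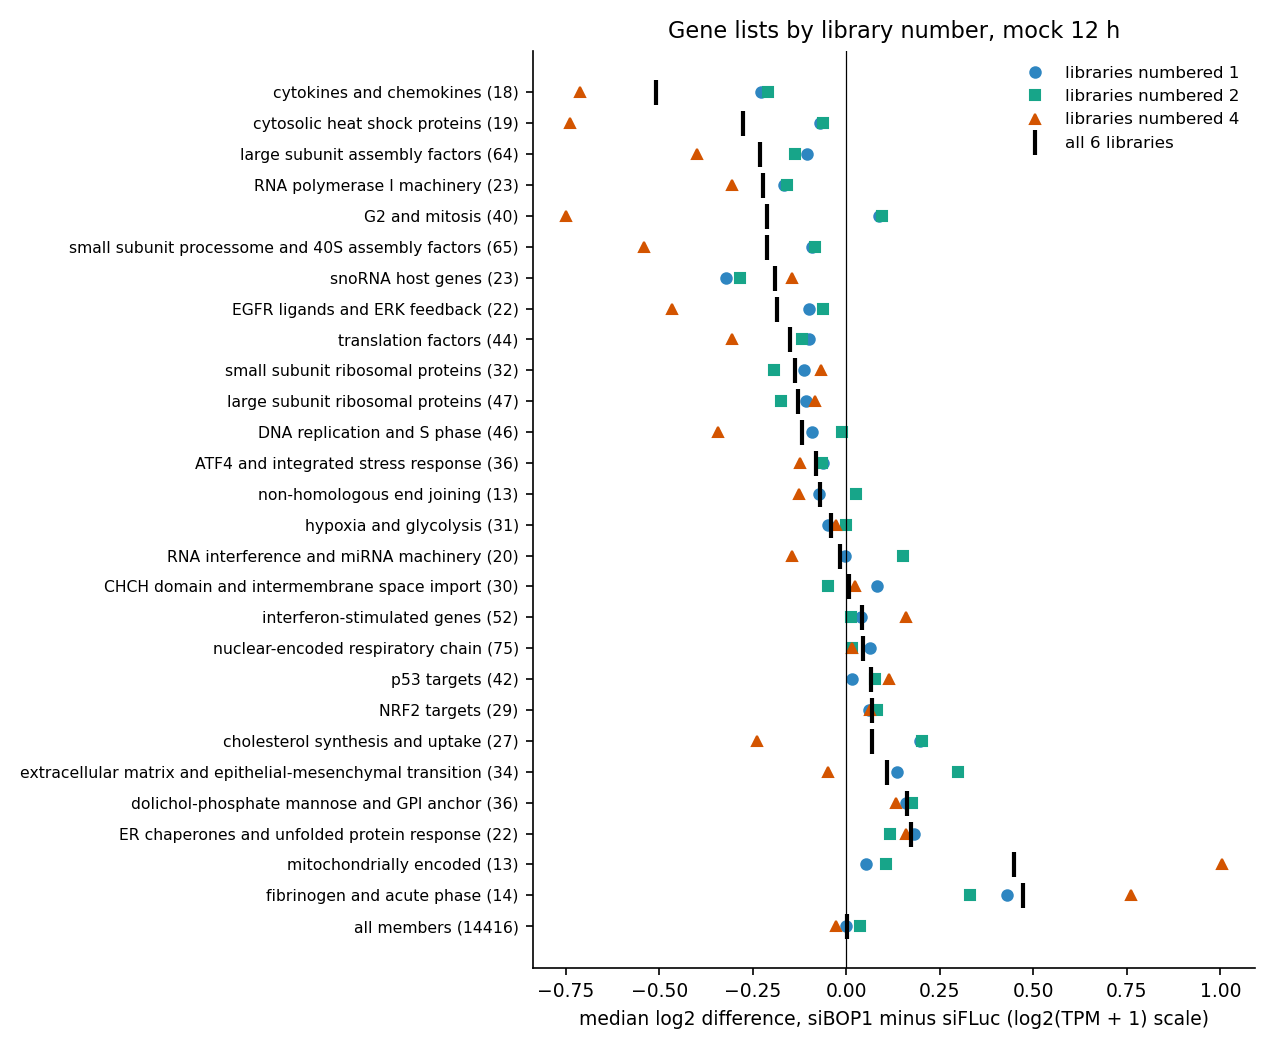
Median log2 difference (siBOP1 minus siFLuc, horizontal axis) of gene lists, with the number of members in brackets, from the library pairs numbered 1, 2 and 4 (symbols) and from all 6 libraries (black bars). Pair 4 lies apart from the other pairs for mitochondrially encoded transcripts (1.00), G2 and mitosis (-0.75) and heat shock proteins (-0.74), while the fibrinogen list lies above 0 in all 3 pairs.

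Among the genes that rose, HINT1 had the largest change. HINT1, a nucleotide-binding hydrolase, measured 574, 615 and 702 TPM in the siBOP1 libraries and 211, 237 and 190 TPM in the siFLuc libraries, a 2.96-fold rise of the mean (log2 fold change 1.56, SE 0.18, adjusted p = 6.36e-05). It was the only called member of its 5-gene family, whose median was 0.05. TM4SF20, a tetraspanin-like membrane protein, measured 34.7, 32.0 and 54.3 TPM against 14.9, 14.9 and 12.9 TPM (1.40, SE 0.19, adjusted p = 0.000363). FAM217B measured 10.6, 12.5 and 14.0 TPM against 4.76, 4.30 and 5.60 TPM (1.18, SE 0.15, adjusted p = 0.000209). These 3 stayed called when any 1 library was left out.

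All 3 fibrinogen genes, whose products form the clotting protein secreted by hepatocytes and by A549 cells, rose. FGB, the beta chain, measured 95.2, 89.7 and 91.7 TPM against 43.4, 46.4 and 36.9 TPM (1.11, SE 0.15, adjusted p = 0.000363). FGA, the alpha chain, measured 71.7, 59.9 and 83.9 TPM against 39.3, 36.9 and 28.4 TPM (1.02, SE 0.20, adjusted p = 0.0096), and FGG, the gamma chain, 73.1, 60.0 and 59.9 TPM against 41.7, 32.0 and 24.3 TPM (0.98, SE 0.18, adjusted p = 0.00623). In each chain every siBOP1 value lay above every siFLuc value, and the 3 genes are neighbours on chromosome 4, between 154562956 and 154612967 on GRCh38. FGL1, a fibrinogen-like hepatokine, rose by 0.95 (adjusted p = 0.00189) and AMBP, the precursor of alpha-1-microglobulin, by 0.82 (adjusted p = 0.0249). Of the 24 fibrinogen and acute phase genes listed, 14 were members and 7 were under 1 TPM in all 6 libraries. Of the 14, 5 rose (35.7%, against 1.01% of all members), 13 lay above 0 and the median was 0.47. Their summed level was 678 to 741 TPM in the siBOP1 libraries and 340 to 529 TPM in the siFLuc libraries. The medians of pairs 1, 2 and 4 were 0.43, 0.33 and 0.76, and without both libraries numbered 4 the median was 0.33 with FGB alone called. FGA lost its call without siBOP1 library 4 (adjusted p = 0.0691).

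STARD10, a phospholipid transfer protein, measured 24.0, 31.4 and 44.5 TPM against 11.9, 14.9 and 15.9 TPM (1.14, SE 0.23, adjusted p = 0.0147). BDKRB2, the bradykinin B2 receptor, measured 13.4, 13.4 and 16.0 TPM against 7.83, 6.42 and 5.25 TPM (1.03, adjusted p = 0.00769). RBP4, the plasma retinol carrier, rose by 1.01 (adjusted p = 0.0133) and ERBB3, a receptor of the EGFR family, by 1.07 (adjusted p = 0.0493), from 4.06, 3.08 and 1.80 TPM to 7.07, 4.79 and 10.5 TPM. The phosphatase PTP4A3 rose by 0.99 (adjusted p = 0.0192) and the antisense RNA ZNF337-AS1 by 1.00 (adjusted p = 0.00516). All of these but ZNF337-AS1 lost the call without siBOP1 library 4, with adjusted p of 0.107 for STARD10, 0.055 for BDKRB2, 0.0919 for RBP4, 0.272 for ERBB3 and 0.122 for PTP4A3. STARD10 also lost it without siBOP1 library 2 or siFLuc library 1, RBP4 without siBOP1 library 2 or siFLuc library 4, ERBB3 without siBOP1 library 1, siFLuc library 2 or siFLuc library 4, and PTP4A3 without siFLuc library 4.

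Of 42 members that p53 is known to induce, 1 rose (2.38%, against 1.01% of all members) and none fell. Of the list, 28 lay above 0, with a median of 0.07, and 3 rose with the block. The median was 0.27 without siFLuc library 4 and 0.02 without both libraries numbered 4, against 0.05 and 0.02 over all members. The called gene was NINJ1, a membrane protein of plasma membrane rupture, at 73.2, 72.3 and 77.7 TPM against 51.7, 55.7 and 49.0 TPM (0.51, SE 0.09, adjusted p = 0.00623). CDKN1A, the p21 cell cycle inhibitor, measured 67.2, 66.4 and 91.8 TPM against 68.7, 53.6 and 70.1 TPM, and the groups overlapped (0.22, adjusted p = 0.757). MDM2 measured 43.1, 45.4 and 96.1 TPM against 49.4, 42.4 and 136 TPM (-0.20, adjusted p = 0.916). MDM2 was high in library 4 of both groups, and its sign turned without siFLuc library 4 (0.32).

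Stress pathways were mixed. Of 36 genes of the ATF4 and integrated stress response, only SLC7A5 was called, and it fell; with the block 2 rose and 4 fell. The list's median was -0.08, with -0.06, -0.07 and -0.12 in pairs 1, 2 and 4. It was -0.05 without both libraries numbered 4, but 0.14 without siFLuc library 4 alone. Of 22 ER chaperones and unfolded protein response genes, 17 lay above 0 (median 0.17, or 0.26 without siFLuc library 4), and HSP90B1, the ER HSP90, rose by 0.30 (613, 562 and 675 TPM against 500, 476 and 522 TPM; adjusted p = 0.036, or 0.211 without siBOP1 library 4, and lost also without siBOP1 library 1 or siFLuc library 1 or 2). With the block, 6 of the 22 rose and 2 fell. Of 19 cytosolic heat shock genes, 18 lay below 0, with a median of -0.28, but the pairs 1, 2 and 4 gave -0.07, -0.06 and -0.74. Of the 19, 3 fell (15.8%, against 0.777% of all members). Beside HSPA1A, these were the co-chaperone STIP1 (-0.52, adjusted p = 0.0141) and the constitutive HSPA8 (-0.43, adjusted p = 0.0363), both lost without siFLuc library 4 (adjusted p = 0.0697 and 0.0741), STIP1 also without siBOP1 library 1 or 2 and HSPA8 without any siBOP1 library. None of the 19 was called without both libraries numbered 4, the median was -0.05 without siFLuc library 4, and 6 fell with the block. HSPA6 was not on this list.

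In the cell cycle lists, UNG was the only called member of 46 replication and S phase genes, whose median was -0.12; with the block 5 fell. Pairs 1, 2 and 4 gave -0.09, -0.01 and -0.34, and the median was -0.03 without both libraries numbered 4 and -0.07 without siFLuc library 4. Of 40 G2 and mitosis genes none was called, with or without the block. Their median of -0.21 came from pair 4 (-0.75), while pairs 1 and 2 gave 0.09 and 0.10, so the direction of this list turned without both libraries numbered 4 (0.10); without siFLuc library 4 alone it was -0.08. The members with the smallest adjusted p were BUB3 and TTK, both of the spindle checkpoint (-0.24 and -0.33; adjusted p = 0.318 and 0.497).

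Mitochondrially encoded transcripts lay above the control for all 13 members, but none was called, and the median of 0.45 was made by pair 4 (1.00, against 0.05 and 0.11). Without siFLuc library 4 the median was -0.07. MT-ND5 measured 1907, 1942 and 1599 TPM against 1796, 1744 and 574 TPM, with siFLuc library 4 alone low. Of 75 nuclear-encoded respiratory chain genes the median was 0.05 (3 rose and 1 fell with the block), and ATP5F1C, the gamma subunit of the ATP synthase, was the only one called, at 161, 139 and 156 TPM against 288, 286 and 312 TPM (-0.96, SE 0.10, adjusted p = 1.84e-05).

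Interferon-stimulated genes in these mock cells had 52 members and a median of 0.04, or -0.02 without siFLuc library 4; with the block 2 rose and 2 fell. Of them, UBE2L6, the conjugating enzyme of ISG15, was called and fell by 0.56 (adjusted p = 0.0147; 0.104 without siBOP1 library 4, and lost also without siBOP1 library 2 or siFLuc library 1 or 2). Of 27 cholesterol synthesis and uptake genes, CYP51A1 fell by 0.55 (adjusted p = 0.0466; 0.202 without siFLuc library 4, and lost without any siBOP1 library), while the median was 0.07 and turned from 0.20 in pairs 1 and 2 to -0.24 in pair 4 (0.18 without siFLuc library 4; 2 rose and 2 fell with the block). Of 18 cytokines and chemokines, IL11 alone was called and rose, at 69.9, 64.4 and 85.0 TPM against 41.0, 37.5 and 42.1 TPM (0.84, SE 0.16, adjusted p = 0.00828; 0.0639 without siBOP1 library 4). The list's median was -0.51, opposite in sign, and the pairs gave -0.23, -0.21 and -0.71. It was -0.02 without siFLuc library 4, and with the block 1 rose and 3 fell. Of 29 NRF2 targets, EPHX1, an epoxide hydrolase, rose by 0.50 (adjusted p = 0.0249; lost when any 1 library was left out, up to 0.148), and the median was 0.07, or 0.11 without siFLuc library 4; with the block 6 rose and 3 fell. No member was called among 31 hypoxia and glycolysis genes (median -0.04, or 0.00 after quantile normalization and -0.11 without siFLuc library 4), 22 EGFR ligand and ERK feedback genes (-0.19) or 20 genes of the RNA interference machinery (-0.02, or 0.02 with mitochondrially encoded genes left out and 0.12 without siFLuc library 4). With the block, 2 rose and 1 fell, 1 rose and 2 fell, and 1 fell in these 3 lists. The EGFR and ERK list gave -0.10, -0.06 and -0.47 in pairs 1, 2 and 4. Its median was -0.08 without both libraries numbered 4, but 0.21 without siFLuc library 4 alone. With the block, a call was made for EGLN1 (0.26, adjusted p = 0.0389), CCND1 (0.51, 0.00768), AGO2 (-0.77, 0.0131) and EGR1 (-2.28, 0.00289), which without it had adjusted p of 0.361, 0.0548, 0.517 and 0.407. EGR1, an immediate early gene, was high in library 4 of both groups, at 11.7 TPM in siBOP1 and 147 TPM in siFLuc.

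The libraries carried the A549 markers listed, but only part of the lung epithelial ones. All 10 A549 markers were members, with a summed level of 17132 to 17915 TPM in the siBOP1 libraries and 16838 to 16962 TPM in the siFLuc libraries. Of them 2 rose and 1 fell, or 5 and 2 with the block. ALDH1A1, a retinal dehydrogenase abundant in A549, rose from 3354, 3100 and 2911 TPM to 4365, 3984 and 4064 TPM (0.41, SE 0.07, adjusted p = 0.00639). Of 14 lung epithelial markers 9 were members, and 5 were under 1 TPM in all 6 libraries, 2 of them at 0. These 5 were among SFTPA1, SFTPB, SFTPC, SFTPD, NKX2-1 and NAPSA. KRT7 and KRT18, keratins of simple epithelia, fell by 0.39 and 0.38 (adjusted p = 0.00928 and 0.0145; lost without siBOP1 library 2 at 0.0506 and 0.0744, and for KRT18 also without siBOP1 library 4), whereas CDH1, the epithelial cadherin, rose by 0.55 (adjusted p = 0.0331). The summed level of the list was 6081 to 6404 TPM against 7922 to 7999 TPM, nearly all of it the keratins KRT7, KRT8, KRT18 and KRT19, which lay below 0. EPCAM, CDH1, MUC1 and CLDN4 lay above 0, and the list's median was -0.13, with 0.05 in pair 4 and -0.32 without both libraries numbered 4; with the block 1 rose and 4 fell. In bulk RNA, fewer cells of a type and less RNA per cell cannot be told apart. Of 34 extracellular matrix and epithelial-mesenchymal transition genes, CDH1 rose and VIM, the mesenchymal filament protein, fell by 0.40 (adjusted p = 0.0128; lost without siBOP1 library 1 or 2, up to 0.0666). That list's median was 0.11, or 0.21 without siFLuc library 4. The CDH1 call was lost without any library but siBOP1 library 2 (highest adjusted p = 0.16, without siBOP1 library 4), and with the block 8 of the 34 rose and 3 fell. Of markers of other cell types, none of 6 endothelial markers was a member, with a summed level of at most 0.27 TPM. Leukocyte markers summed to 4.53 to 7.18 TPM with 3 of 6 at 0, and fibroblast markers to 8.51 to 18.2 TPM, nearly all of it COL1A1, the only member of 6.

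The effect at mock 12 h was set beside the same siRNA contrast at mock 8 h and after 12 h of IFN, each with 6 libraries of its own. Of the 145 members that rose, all had the same sign at mock 8 h (median 0.54) and 94 were called there, among 239 members called higher at 8 h (240 of the genes tested, 1.49%). Of the 112 that fell, 111 had the same sign at 8 h (median -0.52) and 70 were called, among 105 (107 of the genes tested, 0.666%). After IFN, 144 of the 145 had the same sign (median 0.43) with 40 called among 63 (63 of the genes tested, 0.392%), and all 112 had the same sign (median -0.47) with 36 called among 41 (43 of the genes tested, 0.268%). The test of the difference itself called no member by limma in either case. For 12 h against 8 h, 231 members had an unadjusted p under 0.05 and the smallest adjusted p was 0.39; for IFN against mock, 195 members did and the smallest adjusted p was 1. With the block, 758 and 595 members had an unadjusted p under 0.05 and none was called.

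Several of the largest changes differed in size between the comparisons without passing that test. BOP1 changed by -1.77 at mock 8 h and -1.92 after IFN, against -2.00 at mock 12 h, and XRCC6 by -1.42 and -1.13, against -1.49. FGB changed by 0.99 and 1.18, and HINT1 by 1.35 and 1.24. ERBB3 (0.41 at 8 h, 0.46 after IFN), PTP4A3 (0.35 and 0.73) and EXTL3 (-0.43 and -0.59) were not called in the other comparisons. HSPA6 had changes of -0.29 and -0.03 there, HSPA1A -0.02 and -0.78, and PCDHAC2 0.04 and -0.74, none of them called. Of the 65 members that fell and hold the 7-mer, 48 also fell at mock 8 h, from which the 7-mer came, and 24 after IFN.

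**Figure D5:**
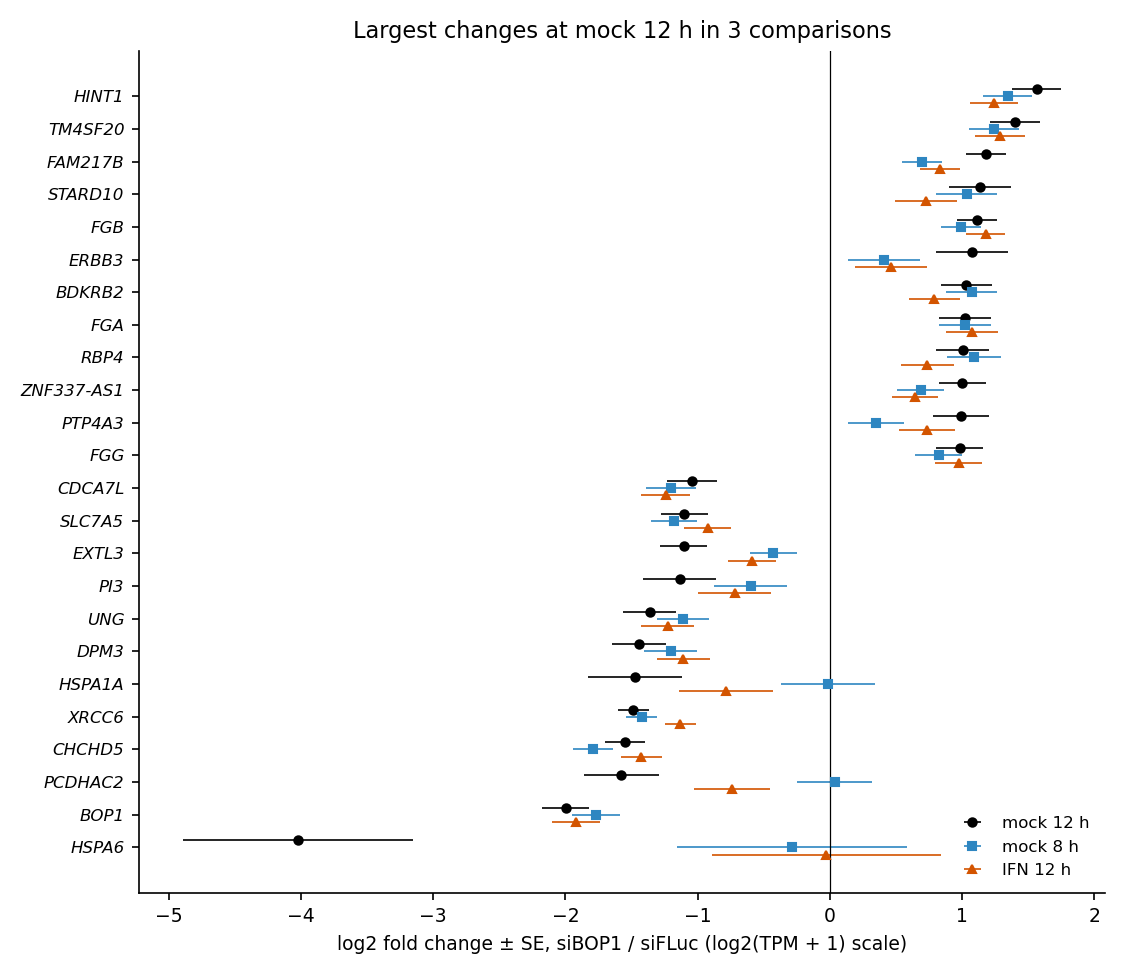
Log2 fold change ± SE (horizontal axis, limma, siBOP1 over siFLuc) of the 12 largest rises and 12 largest falls of mock 12 h, in mock 12 h (black circles), mock 8 h (blue squares) and IFN 12 h (orange triangles). All 12 rises lie above 0 in the 3 comparisons, and the falls lie below 0 apart from PCDHAC2 at mock 8 h; HSPA6, HSPA1A and PCDHAC2 lie near 0 at mock 8 h.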

How the data were processed

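The deposited table holds TPM values for 60609 gene rows and 24 columns, each summing to 1000000; TPM is what the authors deposited, and the aligner, quantifier, genome build and annotation are not given in the sources used here. Because every column has the same total, a rise of abundant transcripts lowers the TPM of the rest. Genes that reached 1 TPM in 3 or more of the 24 libraries (16062) were fitted with limma 3.58.1 in R 4.3.3 on log2(TPM + 1). The fit had 1 mean per group, an intensity trend and no block. It was tested on simulated data with independent noise in each library and changes larger than most of those called here. That test does not cover the shared deviations of same-numbered libraries given below. The GENCODE 29 annotation (GRCh38) held 58457 of the row IDs with version numbers left aside, and 41747 with the same version. The 3′ UTRs are those of 1 transcript per gene.

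Same-numbered libraries deviated together: over 14416 members, the correlation of deviations from the group means was 0.297, 0.299 and 0.448 for numbers 1, 2 and 4, the highest for each library, and it was 0.155 and 0.188 between numbers 1 and 2. Results with the column number as a block are given where they change a named call or move a count by over 1.5 times.

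The members, the 34 gene lists and the 7-mer were chosen with earlier results of these data known. Named genes are BOP1, the 12 largest rises and falls among called members that do not overlap and have a mean of at least 5 TPM in the higher group, at most 4 called members per list (or the 2 with the smallest adjusted p) and a fixed set. AMBP, the pseudogene pairs and the genes at the edge of the expression rule were named after their values were seen.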

Additional observations from a re-analysis of the deposited data

How the results depend on the processing

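Of the alternatives, 13 changed the fit, filter, scale or libraries and 6 left out 1 library each. BOP1 stayed called in all 19, and the difference tests against mock 8 h and IFN 12 h called no member in any fit run; they need other groups, so they have no value with only the 6 libraries compared or, for IFN, with only mock libraries. The count of rises, 145, became 237 without mitochondrial genes and rescaled, 62 with only mock libraries, 2 with only the 6 libraries compared, 18 without both libraries numbered 4 (chosen after seeing the data), and 31 to 116 when 1 library was left out. The count of falls, 112, became 171 with quantile normalization, 67, 8, 26 and 43 to 98 in the same order. With column numbers 1 and 2 alone in all groups, the counts were 162 and 126. With the replicate block (column number within time) the counts were 686 and 537, and with median-of-ratios rescaling as well 668 and 572; among named genes the block changed no call beyond those given. Of 71 named genes, 52 were called, 9 with only the libraries compared and 17 without both libraries numbered 4. With column numbers 1 and 2 alone 39 were called, and with 1 library left out 25 to 43. The share of falls with the 7-mer, 63.1%, was 72.5% without the trend, 34.4% with the block, 33.0% with block and rescaling, 50.4% with column numbers 1 and 2 alone, 73.9% without both libraries numbered 4, 72.8% for the 6-mer CCAGTT and 61.1% to 75.6% with 1 library left out. Signs turned, all uncalled, for PES1 (0.0017), CD14 (-0.021) and COL1A1 (-0.038) with column numbers 1 and 2 alone and, alike, without both libraries numbered 4. With 1 library left out, COL1A1 ran from -0.092 to 0.39 and MDM2 from -0.57 to 0.32. The cause of these shifts was not tested. TPM keeps no depth, so no counting error can be given, and 3 libraries a group limit the precision.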

Other observations

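Further groups, chosen after their values were seen and so described without a test, lay in the secretory pathway and the cytoskeleton. Over all genes tested, 0.903% rose and 0.697% fell, or 4.31% and 3.35% with the block, and 49.7% of all members lay below 0. All 12 members of the oligosaccharyltransferase, which attaches N-glycans in the ER, were measured, and 11 lay above 0 (median 0.26; 0.23, 0.22 and 0.33 in pairs 1, 2 and 4). DDOST, RPN2, STT3A and TUSC3 rose in the fit over all genes, and 7 rose with the block. TUSC3 lost its call when any 1 library was left out (up to 0.213), DDOST without siBOP1 library 1 or 4 or siFLuc library 1 or 2 (up to 0.117), and RPN2 and STT3A without siBOP1 library 4 (0.066 and 0.082). None of the 4 was called without both libraries numbered 4. RPN2 measured 266, 270 and 289 TPM in the siBOP1 libraries against 210, 222 and 231 TPM in the siFLuc libraries (0.31, SE 0.06, limma adjusted p = 0.00895). All 9 p24 cargo receptors of ER-to-Golgi vesicles lay above 0 (median 0.22), TMED4 by only 0.002 (-0.03 without both libraries numbered 4). TMED2, TMED5 and TMED10 rose by 0.43, 0.48 and 0.39. Without siBOP1 library 4 their adjusted p was 0.155, 0.195 and 0.191; TMED2 also lost its call without siFLuc library 1 or 2, and TMED5 and TMED10 without any library but siFLuc library 4. TMED5 stayed called without both libraries numbered 4 (0.0283). Of 33 lysosomal hydrolases 29 lay above 0 (median 0.20), and CTSD, CTSF, NAGLU and FUCA1 rose; with the block 12 rose and 2 fell. CTSF lost its call when any 1 library was left out (up to 0.188), NAGLU without any siBOP1 library or siFLuc library 4 (up to 0.0919) and CTSD without siBOP1 library 4 or siFLuc library 1 (0.0818 and 0.0619). FUCA1, a fucosidase, measured 18.7, 17.2 and 19.6 TPM against 9.26, 10.7 and 11.5 TPM (0.76, SE 0.13, limma adjusted p = 0.00278) and stayed called in each of these fits and without both libraries numbered 4 (0.0265). CTSD, the protease cathepsin D, measured 545, 554 and 604 TPM against 381, 409 and 433 TPM.

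All 7 keratins of the group chosen lay below 0 (median -0.33, with -0.29, -0.36 and -0.36 in pairs 1, 2 and 4). KRT80, at -0.05, was above 0 in pairs 1 and 2 (0.05 and 0.15) and without both libraries numbered 4 (0.10). It was also above 0 at mock 8 h (0.14) and after IFN (0.10). Beside KRT7 and KRT18, KRT81 fell, at 1360, 1331 and 1379 TPM against 1655, 1708 and 1675 TPM (-0.31, limma adjusted p = 0.0197). It lost its call without any library but siFLuc library 4 (up to 0.0894, without siBOP1 library 2) and without both libraries numbered 4 (0.12), and with the block 6 of the 7 fell. The medians of these 4 groups at mock 8 h were 0.24, 0.24, 0.23 and -0.22, and after IFN 0.22, 0.11, 0.19 and -0.33, on the same side of 0 as at mock 12 h.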
